A study of Mus musculus with 4 samples.

Results

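Trophoblast cells of Reactivated mouse embryos were set against trophoblast cells of EDG9.5 embryos. Reactivated embryos are labelled as EDG9.5 with 30 h of E2, here estradiol, and EDG9.5 embryos carry no such treatment on their label. Both groups were wild-type whole embryos of the strain B6C3F1/J, flushed from the uterus and pooled, about 200 to 250 blastocysts a stage, with 1 BD Rhapsody library each. EDG7.5 blastocysts, flushed in the same way, and about 50 E5.5 embryos, dissected from implantation sites, gave 1 library each and serve only as side values. The sources used here do not say how the delay was brought about, nor the dose of E2. Cells were chosen by their counts of unique molecular identifiers (UMIs) in 3 sets of genes. A cell with at least 1000 UMIs was called trophoblast when the set Gata2, Gata3, Tspan8, Dppa1, Rhox6, Rhox9, Cdx2, Hand1, Ascl2 and Elf5 held at least 3 UMIs and at least 60% of the UMIs of the trophoblast, epiblast and endoderm sets together. The rule gave 153 trophoblast cells in Reactivated and 975 in EDG9.5, 1128 of the 3243 barcodes of these libraries and of the 14529 barcodes of all 4 libraries.

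In embryonic diapause the mouse blastocyst stops growing and waits, unattached, in a uterus that lacks the estrogen surge of implantation. A dose of estrogen makes the uterus receptive, and the blastocyst resumes growth. Trophoblast is the outer layer that attaches to and invades the uterus and later forms the placenta. Its polar part, next to the epiblast, gives rise to the extraembryonic ectoderm, and its mural part to giant cells. The ectoplacental cone grows from the extraembryonic ectoderm.

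UMIs were summed over the trophoblast cells of a library and given as CPM, UMIs scaled to a common total, which is a share of UMIs and not an amount per cell. With 1 library per stage no difference could be set against a spread between replicates, so no test was made. Intervals are exact at 95% and cover counting error only. Stage, the E2, the 30 h that go with it and library cannot be told apart. Log2 ratios are Reactivated over EDG9.5 with 10 CPM added to each, which pulls the ratios of low genes towards 0, and ratios of CPM are given without the addition.

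The genes that chose the cells differed in level between the libraries, which is given as a description only. Dppa1 had 320 CPM in Reactivated and 1742 CPM in EDG9.5, Gata3 212 and 1280 CPM in the same order, Cdx2 59.3 and 346 CPM, Gata2 238 and 744 CPM and Tspan8 714 and 1558 CPM. Elf5, a transcription factor of extraembryonic ectoderm, stood the other way, with 706 CPM in Reactivated and 78.3 CPM in EDG9.5. Hand1, of giant cells, had 181 and 1.98 CPM, and Ascl2, of the ectoplacental cone, 94.9 CPM in Reactivated and 1 UMI in EDG9.5. In Reactivated at least 50% of the UMIs of Hand1 lay in 4 of 153 cells, and of those of Ascl2 in 6. Rhox6 had 72.3 and 26.6 CPM and Rhox9 17.3 and 21.8 CPM. The median member held 24 UMIs of the set in Reactivated and 22 in EDG9.5, which made up 87.2% and 100% of its marker UMIs. At the edge of the rule, 22 members in Reactivated and 2 in EDG9.5 lay between 60% and 70%, against 8 and 1 cells just outside it, between 50% and 60%. Utf1, a gene of the epiblast set, itself had 266 CPM in Reactivated trophoblast and 29.9 CPM in EDG9.5 trophoblast. Without it in the rule, 165 Reactivated cells were called trophoblast.

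The label was also checked with markers that the rule did not use. The keratin gene Krt18, a trophectoderm marker, had 1855 CPM in Reactivated trophoblast and 3486 CPM in EDG9.5 trophoblast, against at most 41.7 CPM in epiblast or endoderm of either library. Eomes, a transcription factor of trophoblast stem cells, had 479 and 443 CPM, and Tfap2c, a trophoblast transcription factor, 460.0 and 260 CPM. The list of 12 endoderm markers summed to 169.9 CPM in Reactivated and 3053 CPM in EDG9.5, most of it Dab2, with 72.8 and 2183 CPM, Apoe, with 43.7 and 507 CPM, and Gata6, with 8.09 and 243 CPM. Lrp2 had 8.09 and 56.9 CPM and Lama1 4.85 and 24.2 CPM, while Sox7 and Pdgfra, each over 100 CPM in EDG9.5 endoderm, had 0 UMIs in Reactivated and at most 2 in EDG9.5 trophoblast. Epiblast markers summed to 425 and 346 CPM, most of it Dnmt3b, with 279.9 and 91.5 CPM, L1td1, with 44.8 and 171 CPM, and Zfp42, with 77.1 and 74.5 CPM. Pou5f1 had 0 and 0.66 CPM, but it has pseudogenes and reached only 98.6 and 49.3 CPM in epiblast itself. Among uterine epithelium markers, Wfdc2 had 268 CPM in Reactivated and 162 CPM in EDG9.5, and Msx1, which trophoblast also expresses, 141 and 256 CPM. Decidual stroma markers gave 49.6 and 26.2 CPM, erythroid markers 0.54 and 0.44 CPM, immune markers 81.4 and 1.54 CPM and endothelium markers 36.1 and 3.74 CPM. The immune sum was nearly all Cd52 (79.8 CPM), with Ptprc at 0 in both libraries, and the endothelium sum nearly all Cdh5 (32.9 CPM). The part of other cells in the results was not tested.

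Trophoblast made up a smaller share of the Reactivated cells. Among cells given a lineage it was 23.0% (19.9 to 26.4) in Reactivated and 39.4% (37.5 to 41.4) in EDG9.5, with Clopper-Pearson intervals. In the other libraries it was 36.3% in EDG7.5 and 26.7% in E5.5. Losses at dissociation and capture were not measured, and the genes of the lineage rule differed in level between the libraries. Fewer trophoblast cells in the embryo, fewer recovered and fewer that met the rule therefore cannot be told apart. The share also moved with the cutoffs of the rule, as given below. Reactivated trophoblast cells were also deeper, with a median of 11108 UMIs and 3270 genes a cell, against 3803 UMIs and 1743 genes in EDG9.5, in sums of 1854469 and 4548843 UMIs. Mitochondrially encoded genes gave a median of 6.47% of a cell's UMIs in Reactivated and 8.90% in EDG9.5. The libraries share 3 barcodes, none of them in trophoblast cells.

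Of 7859 genes with a mean of at least 10 CPM over both sums, 1079 (13.7%) were at least 2-fold higher in Reactivated trophoblast and 1236 (15.7%) at least 2-fold lower, and the median log2 ratio was -0.04. All counts of list members below are to be read beside these shares. The genes that were higher included many of glycolysis, serine synthesis, cell division, ribosome biogenesis, chaperones and the proteasome. Those that were lower included genes of the lysosome, FOXO factors with their targets, immediate early genes, aquaporins and genes of naive pluripotency that diapause trophoblast also carries. For comparison, epiblast had 9.81% of 8583 genes higher and 21.7% lower, and endoderm 8.02% of 8556 genes higher and 14.6% lower.

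Among the 14 genes with the highest log2 ratios, metabolic enzymes and genes of placental trophoblast stood together. Psat1, the second enzyme of serine synthesis, had 899 CPM (856 to 943) in Reactivated and 15.2 CPM (11.8 to 19.2) in EDG9.5, a ratio of 59.3 (46.6 to 76.5). Ldha, which turns pyruvate into lactate, had 1119 CPM in Reactivated and 28.1 CPM in EDG9.5, a ratio of 39.8 (33.3 to 47.9). Pkm, the pyruvate kinase that works just before it, had 749 and 51.9 CPM, a ratio of 14.4 (12.6 to 16.6). Among placental genes, Plac1, needed for normal placental growth, had 366 and 15.4 CPM, a ratio of 23.8 (18.6 to 30.9). The keratin Krt19 had 378 and 21.1 CPM, and Phlda2, an imprinted gene that restrains placental growth, 119 CPM in Reactivated and 3 UMIs in EDG9.5. Itga7, a laminin-binding integrin, had 130.5 CPM in Reactivated and 2 UMIs in EDG9.5, a ratio of 297 with a counting interval of 81.3 to 2465. Each of these genes was near or below 50 CPM in EDG9.5 trophoblast. The cathepsin L-like gene Ctsll3 had 1237 CPM in Reactivated and 3 UMIs in EDG9.5, and its relative BC051665 1080.1 and 59.8 CPM. Cathepsin genes of this family have close copies, so both counts are uncertain. The other members were Tmem37, a membrane protein gene, with 308 and 9.45 CPM, Saa3, an acute phase serum amyloid gene, with 183 and 2.86 CPM, Ppap2a, a lipid phosphate phosphatase, with 204 and 4.84 CPM, Ier5, an immediate early response gene, with 162 and 3.30 CPM, and Birc5, of the chromosomal passenger complex, with 553 and 34.3 CPM.

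**Figure D1:**
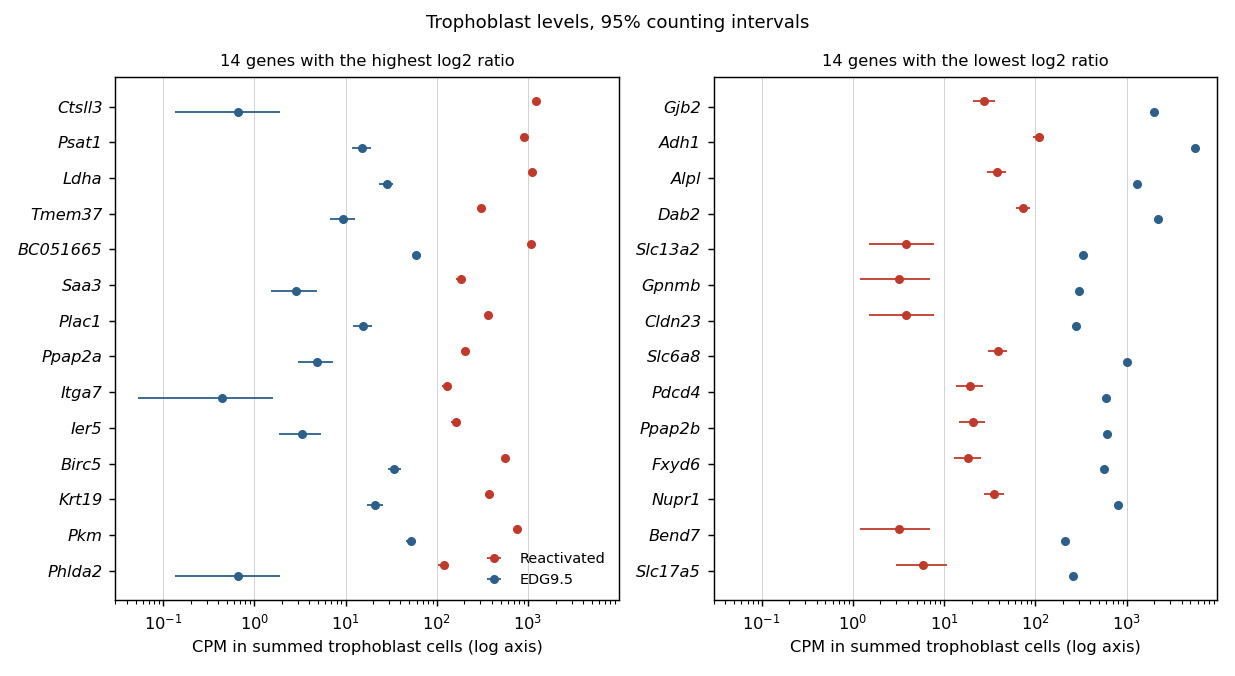
CPM in summed trophoblast cells on a log axis, Reactivated above EDG9.5 in each row, with exact Poisson 95% intervals (bars), for the 14 genes at each end of the ranking by log2 ratio. Intervals of the pair do not overlap for any of the genes, which follows from how they were picked. Wide bars mark genes with few UMIs, such as Itga7 with 2 UMIs in EDG9.5.

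The 14 genes with the lowest log2 ratios were mostly genes of transport, junctions and membranes that were abundant in EDG9.5 trophoblast. Gjb2, which makes the gap junction protein connexin 26, had 27.5 CPM (51 UMIs) in Reactivated and 1971 CPM in EDG9.5, 71.7 (54.5 to 96.3) times lower. Adh1, an alcohol dehydrogenase that also oxidises retinol, had 109 CPM in Reactivated and 5544 CPM in EDG9.5, 50.9 (44.3 to 58.8) times lower. The alkaline phosphatase Alpl had 37.7 and 1281 CPM, and the endocytic adaptor Dab2 72.8 and 2183 CPM. All 4 were above 1000 CPM in EDG9.5 trophoblast. Solute carriers were prominent among the rest. Slc6a8, which imports creatine, had 38.8 and 1007 CPM, Slc13a2, a carrier of dicarboxylates and citrate, 3.77 and 331 CPM, and Slc17a5, which exports sialic acid from lysosomes, 5.93 and 255 CPM. The junction and pump genes Cldn23, a claudin, and Fxyd6, a regulator of the sodium pump, had 3.77 and 279.6 CPM and 18.3 and 567 CPM. Gpnmb, a lysosomal and membrane glycoprotein, had 3.24 CPM (6 UMIs) in Reactivated and 304 CPM in EDG9.5, 93.9 (43.0 to 256) times lower. The stress-induced gene Nupr1 had 35.1 and 801 CPM, Pdcd4, an inhibitor of translation, 19.4 and 599.7 CPM, Ppap2b, a lipid phosphate phosphatase like Ppap2a, 20.5 and 611 CPM, and Bend7, a BEN domain gene, 3.24 and 213 CPM. The pair of phosphatases thus stood on opposite sides.

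Set among 4 libraries, these genes did not all sit at one level outside the pair. In the order EDG7.5, EDG9.5, Reactivated, E5.5, trophoblast values were 5643, 5544, 109 and 2.09 CPM for Adh1 and 1771, 1971, 27.5 and 0.243 CPM for Gjb2. For Psat1 they were 3.58, 15.2, 899 and 720.0 CPM, for Ldha 6.26, 28.1, 1119 and 1567 CPM, and for Phlda2 1.79, 0.66, 119 and 1554 CPM. Ctsll3 stood apart, with 0, 0.66, 1237 and 0.438 CPM, as did BC051665, with 123, 59.8, 1080.1 and 1.26 CPM, and Saa3, with 0.894, 2.86, 183 and 0.486 CPM. These 3 genes, like Psat1, had their highest level of the 4 libraries in Reactivated, but unlike Psat1 they were near absent from E5.5.

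**Figure D2:**
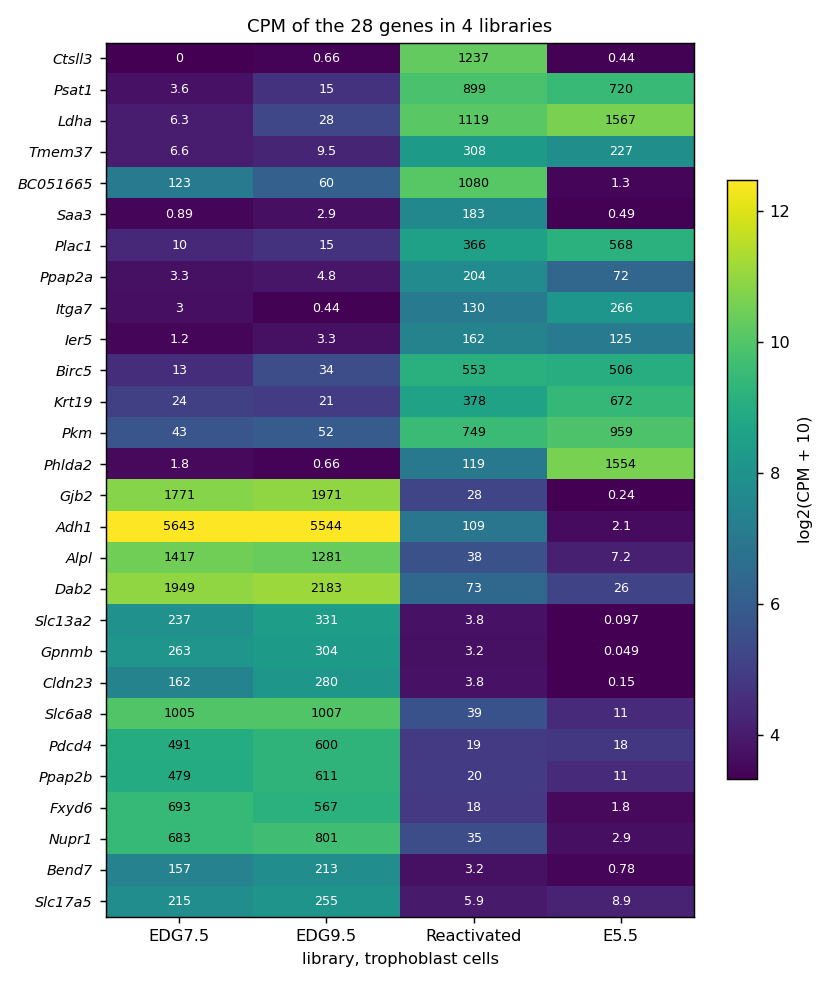
CPM (printed) and log2(CPM + 10) (colour) of the same 28 genes in summed trophoblast cells, columns EDG7.5, EDG9.5, Reactivated, E5.5, 1 library each. Psat1 had 899 CPM in Reactivated and 720.0 CPM in E5.5, while Ctsll3 had 1237 CPM in Reactivated and under 1 CPM in the other 3 libraries.

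Trophoblast identity genes differed by gene. Of 22 genes of polar trophectoderm and extraembryonic ectoderm, 16 were measured, meaning that they reached the mean of 10 CPM. Of these, 6 were at least 2-fold higher in Reactivated and 0 lower, with a median log2 ratio of 0.37. Id2, an inhibitor of basic helix-loop-helix factors, had 2239 CPM in Reactivated and 1091 CPM in EDG9.5, and the reproductive homeobox gene Rhox5 601 and 239 CPM. Bmp4, a ligand that extraembryonic ectoderm sends to the epiblast, had 37.7 CPM in Reactivated and 1.10 CPM in EDG9.5, Esrrb, a nuclear receptor of trophoblast stem cells, 38.3 and 6.81 CPM, and Sox21 32.4 and 4.4 CPM. Eomes differed by a ratio of only 1.08 (0.998 to 1.17). Of 25 giant cell and ectoplacental genes just 7 were measured, 4 higher and 1 lower, with a median of 1.62. The placental lactogen genes Prl3d1 and Prl3d2 had 0 UMIs in both libraries. The higher members were Ctsll3, Plac1, Peg10, an imprinted retrotransposon-derived gene the placenta needs, with 75 and 15.8 CPM, and Limk1, a kinase that acts on the actin cytoskeleton, with 35.1 and 4.62 CPM, while Ndrg1, a stress-responsive gene, was lower with 279 and 1260.3 CPM.

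Genes of attachment and of cell shape are given beside the all-gene shares of 13.7% higher and 15.7% lower. Of 22 measured adhesion and implantation genes of 28 listed, 6 were higher and 3 lower, with a median of -0.15, which was 0.22 with cells thinned to 1000 UMIs. For this and the other log2 ratios and medians with thinned cells, lineages were assigned again from the thinned counts. Depth and the change of cells cannot be told apart in them. The integrin genes Itgb3, which binds fibronectin and osteopontin with integrin αv, and Itga7 were near absent from EDG9.5. Itgb3 had 67.4 CPM in Reactivated and 1.54 CPM in EDG9.5. Itgav, its partner, had 115 and 55.8 CPM, while Itga6 had 56.6 and 122 CPM and Spp1, the ligand osteopontin, 2.16 and 84.9 CPM. The galectin Lgals1 had 5690.0 and 2735 CPM and Lgals3 1512 and 1754 CPM, and the surface glycoproteins Epcam and Sdc4 826 and 1195 CPM and 684 and 1243 CPM. Of 31 measured keratin, desmosome and cytoskeleton genes of 35 listed, 11 were higher and 5 lower, with a median of 0.56. Among the higher ones were cofilin (Cfl1), which turns over actin filaments, at 5075 CPM in Reactivated and 1394 CPM in EDG9.5, the tubulins Tubb5 and Tuba1b at 876 and 128 CPM and 548 and 116 CPM, and the calcium-binding S100a6 at 1112 and 239 CPM. The 5 lower ones were desmoglein (Dsg2) at 60.9 and 367 CPM, plakoglobin (Jup) at 63.1 and 194 CPM, desmoplakin (Dsp) at 112 and 296 CPM, the keratin Krt8 at 272 and 686 CPM and the giant scaffold Ahnak at 188 and 2246 CPM. The lower counts of this list and of the adhesion list lay near the all-gene share of 15.7%.

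Genes of the transport and seal of the blastocoel were mostly under 2-fold apart (13 of 22 measured), with more lower than higher among the rest. Trophectoderm fills the cavity by pumping sodium and letting water follow through aquaporins, behind tight junctions. Of 22 measured genes of 25 listed, 3 were higher and 6 lower, with a median of -0.51. The 3 measured aquaporins were all lower, with Aqp3 at 221 CPM in Reactivated and 975 CPM in EDG9.5, Aqp9 at 22.1 and 403 CPM and Aqp8 at 8.09 and 125 CPM. The sodium pump subunit Atp1b1 had 402 and 756 CPM, whereas Atp1b3 had 357 and 124 CPM. Claudin 4 (Cldn4) had 885 and 1632 CPM, and Cldn7 464 and 565 CPM, a direction that turned with cells thinned to 1000 UMIs. Of 4 measured connexin and pannexin genes of 9 listed, Gjb2 alone passed 2-fold. Gjb5, which makes connexin 31.1, had 101 CPM in Reactivated and 64.9 CPM in EDG9.5, which turned to a log2 ratio of -0.79 with thinned cells. In alcohol and retinoid metabolism, 7 of 22 listed genes were measured, 1 higher and 4 lower, with a median of -1.03. Beside Adh1, the aldehyde dehydrogenase Aldh2 had 136 and 1669 CPM and the retinoic acid hydroxylase Cyp26a1 31.8 and 218 CPM.

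Receptors for hormones and growth factors were mostly low in trophoblast of both libraries. The estrogen receptor genes Esr1 and Esr2 had 0 UMIs in both sums, which allows at most 1.62 CPM in Reactivated and 0.66 CPM in EDG9.5 (3 counts of the total). The progesterone receptor Pgr had 1 and 0 UMIs. Of 13 measured receptors and cofactors of 28 listed, 0 were higher and 6 lower, with a median of -0.87. The nuclear corepressor Ncor1 had 84.7 CPM in Reactivated and 249.5 CPM in EDG9.5, the insulin receptor Insr 3.24 and 25.3 CPM, the mannose 6-phosphate receptor Igf2r, which clears IGF2, 35.1 and 137 CPM, and Fgfr1 38.8 and 124 CPM. Fgfr2, the receptor through which FGF4 maintains trophoblast stem cells, had 193 and 322 CPM, whose log2 ratio of -0.71 was 0.10 with thinned cells. In the EGF receptor family, which binds the implantation ligand HB-EGF through Egfr and Erbb4, Egfr had 36 UMIs (19.4 CPM) in Reactivated and 1 UMI in EDG9.5, Erbb3 22.6 and 130.1 CPM, and Erbb4 0 UMIs in both. Egfr did not reach the mean of 10 CPM and is not in the counts.

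Most glycolysis genes were higher, from phosphofructokinase to lactate export. Of 18 measured genes of 25 listed, 11 were higher and 2 lower, with a median log2 ratio of 1.75. Aldolase (Aldoa) had 2135 CPM in Reactivated and 639.5 CPM in EDG9.5, Gapdh 1270.4 and 301 CPM, enolase (Eno1) 572 and 89.9 CPM and phosphoglycerate kinase (Pgk1) 209.8 and 23.7 CPM. Slc16a3, which exports lactate, had 128 and 1.76 CPM, a ratio of 72.7 (36.3 to 170.3). The entry steps did not move as one. Slc2a1, a glucose transporter, had 514 and 181 CPM, while Slc2a3, also one, had 518 and 1505 CPM, and hexokinase 2 (Hk2), which traps glucose in the cell, 152 and 860 CPM. Several of these genes, Gapdh among them, have many processed pseudogenes, so reads may have been lost to or gained from copies.

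Most genes of serine synthesis and amino acid uptake were higher. Of 17 measured genes of 23 listed, 12 were higher and 1 lower, with a median of 1.68. All 3 enzymes of serine synthesis were higher, Psat1 with the values above, Phgdh, the first step, with 143 CPM in Reactivated and 38.0 CPM in EDG9.5, and Psph, the last step, with 87.9 and 3.30 CPM. Slc3a2, the heavy chain of amino acid exchangers, had 916 CPM in Reactivated and 279 CPM in EDG9.5, its light chain Slc7a5 105 and 13.0 CPM, and the mitochondrial folate enzyme Mthfd2 96.0 and 13.0 CPM. The gene that was lower was Slc1a5, a glutamine carrier, with 30.2 and 255 CPM. Atf4, the transcription factor that induces many of these genes when amino acids are short, had 288 and 346 CPM. The integrated stress response list itself had 3 of 10 measured genes higher and 2 lower, with a median of -0.32, and Ddit3, its proapoptotic target, had 14 and 46.4 CPM. Asns, the asparagine synthetase, had 169 CPM in Reactivated and 32.5 CPM in EDG9.5.

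Windows from 250 bases before to 50 bases after each RefSeq start site (GRCm38.p6) were searched on both strands for TGATGNAA, the letters of the composite element to which ATF4 binds. They were found in 5 of 20 matched genes of the serine and amino acid list, 25%, against 4.51% of 27025 genes. Of these 5 only Asns was measured in trophoblast, while Slc7a7, Slc7a11, Slc1a4 and Pycr1 did not reach the mean of 10 CPM. The window of Asns (chr6:7693160-7693459, minus strand), whose human counterpart is a known ATF4 target, is shown 5′ to 3′ with the match in capitals.
Asns: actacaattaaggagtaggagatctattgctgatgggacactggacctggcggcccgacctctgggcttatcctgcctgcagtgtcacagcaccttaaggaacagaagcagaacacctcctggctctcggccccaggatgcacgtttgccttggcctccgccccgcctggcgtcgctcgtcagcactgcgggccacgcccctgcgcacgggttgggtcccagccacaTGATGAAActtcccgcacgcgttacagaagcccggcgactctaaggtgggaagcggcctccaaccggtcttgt
The windows of Psat1, Phgdh and Slc3a2 hold no match. A match describes letters and not binding.

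Cell division genes formed the most uniform group. Of 31 measured genes of G2 and M phase of 32 listed, 28 were higher in Reactivated and 0 lower, with a median of 1.85, and of 24 measured S phase genes of 26 listed 19 were higher and 0 lower, with a median of 1.59. The mitotic kinase Cdk1 had 271 CPM in Reactivated and 17.4 CPM in EDG9.5, a ratio of 15.6 (12.3 to 20.1). Its cyclin partners Ccna2, Ccnb1 and Ccnb2 had 375 and 24.8 CPM, 170.4 and 25.7 CPM, and 96.5 and 7.25 CPM. Ube2c, which tags mitotic cyclins for destruction, had 371 and 41.1 CPM. The 3 measured members under 2-fold were Cenpe, Cks2 and Pttg1, with log2 ratios of 0.29, 0.97 and 0.90. In S phase, the helicase subunit Mcm5 had 280.4 and 44.0 CPM, Rrm2, of nucleotide supply, 462 and 118 CPM, and the origin loading factor Cdc6 58.2 and 3.52 CPM. Among G1 genes, where 6 of 20 measured were higher and 4 lower, Ccne1, the cyclin of S phase entry, had 139 and 3.30 CPM. The cell cycle inhibitor Cdkn1a had 16.2 and 109.7 CPM, and the antiproliferative genes Btg1 and Btg2 10.2 and 129 CPM and 30.2 and 232 CPM.

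Many mitotic promoters carry the letters TTTGAA, known as the cell cycle genes homology region (CHR), together with CCAAT boxes. In the same windows TTTGAA was found in 21 of the 29 matched G2 and M phase genes, 72.4%, against 20.2% of all genes, and CCAAT in 25 of 29, 86.2%, against 41.1%. Both were present in 20 of 29, 69.0%, against 8.97%. The windows of 3 cyclin, kinase and ubiquitin genes whose trophoblast levels are given above are shown 5′ to 3′, with both motifs in capitals on either strand (TTCAAA and ATTGG are the reverse complements). They lie at chr10:69352863-69353162 (minus strand) for Cdk1, chr9:70421505-70421804 (minus strand) for Ccnb2 and chr2:164769679-164769978 (plus strand) for Ube2c.
Cdk1: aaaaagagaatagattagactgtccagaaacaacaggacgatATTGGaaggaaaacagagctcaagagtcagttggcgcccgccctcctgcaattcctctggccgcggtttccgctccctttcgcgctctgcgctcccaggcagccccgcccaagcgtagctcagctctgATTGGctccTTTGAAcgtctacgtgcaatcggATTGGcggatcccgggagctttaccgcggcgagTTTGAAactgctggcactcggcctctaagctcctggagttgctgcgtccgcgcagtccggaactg
Ccnb2: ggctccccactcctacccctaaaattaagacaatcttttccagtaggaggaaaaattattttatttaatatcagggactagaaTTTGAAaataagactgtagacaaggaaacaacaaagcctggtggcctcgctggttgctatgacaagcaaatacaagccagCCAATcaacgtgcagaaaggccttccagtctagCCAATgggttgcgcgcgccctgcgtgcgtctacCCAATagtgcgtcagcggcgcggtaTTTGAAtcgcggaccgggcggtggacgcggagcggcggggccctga
Ube2c: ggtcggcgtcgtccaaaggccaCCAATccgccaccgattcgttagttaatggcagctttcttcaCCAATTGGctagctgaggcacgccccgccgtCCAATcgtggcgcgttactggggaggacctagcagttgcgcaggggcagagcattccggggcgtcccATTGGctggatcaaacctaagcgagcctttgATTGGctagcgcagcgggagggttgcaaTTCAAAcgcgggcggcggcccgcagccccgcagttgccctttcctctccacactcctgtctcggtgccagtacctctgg
Cdk1 and Ccnb2 each hold 2 TTTGAA and 3 CCAAT matches and Ube2c 1 and 6, of which a pair overlap on opposite strands. The window of Birc5 holds neither, although Birc5 had 553 CPM in Reactivated and 34.3 CPM in EDG9.5. Other motifs were searched in 4 more lists. CACGTG, the E-box that MYC and MiT/TFE factors bind, was found in 5 of 25 ribosome biogenesis genes (20.0%), 4 of 24 glycolysis genes (16.7%) and 8 of 30 lysosome genes (26.7%), against 8.09% of all genes. GTAAACA, which FOXO factors bind, was found in 2 of 17 genes of the FOXO list (11.8%), against 4.05%.

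Many genes that build and maintain proteins were higher. Of 28 measured ribosome biogenesis and MYC genes of 29 listed, 17 were higher and 1 lower, with a median of 1.13. Nucleolin (Ncl) and nucleophosmin (Npm1), of the nucleolus, had 2384 and 783 CPM and 5123 and 2195 CPM, whereas Dkc1, of RNA pseudouridylation, had 381 and 884 CPM. All 28 chaperone genes were measured, 17 of them higher and 0 lower, with a median of 1.12, and all 28 proteasome genes, 20 higher and 0 lower, with a median of 1.36. The cytosolic chaperone Hsp90aa1 had 1714 CPM in Reactivated and 764 CPM in EDG9.5, and the proteasome subunits Psmb4 and Psmd14 661 and 185 CPM and 354 and 78.9 CPM. Translation factors were less uniform, with 5 of 23 higher and 1 lower and a median of 0.52. The elongation factor Eef1a1, which also has many pseudogenes, was the lower one, with 872 and 2534 CPM. Ribosomal protein genes together took 15.1% of UMIs in Reactivated and 15.2% in EDG9.5.

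**Figure D3:**
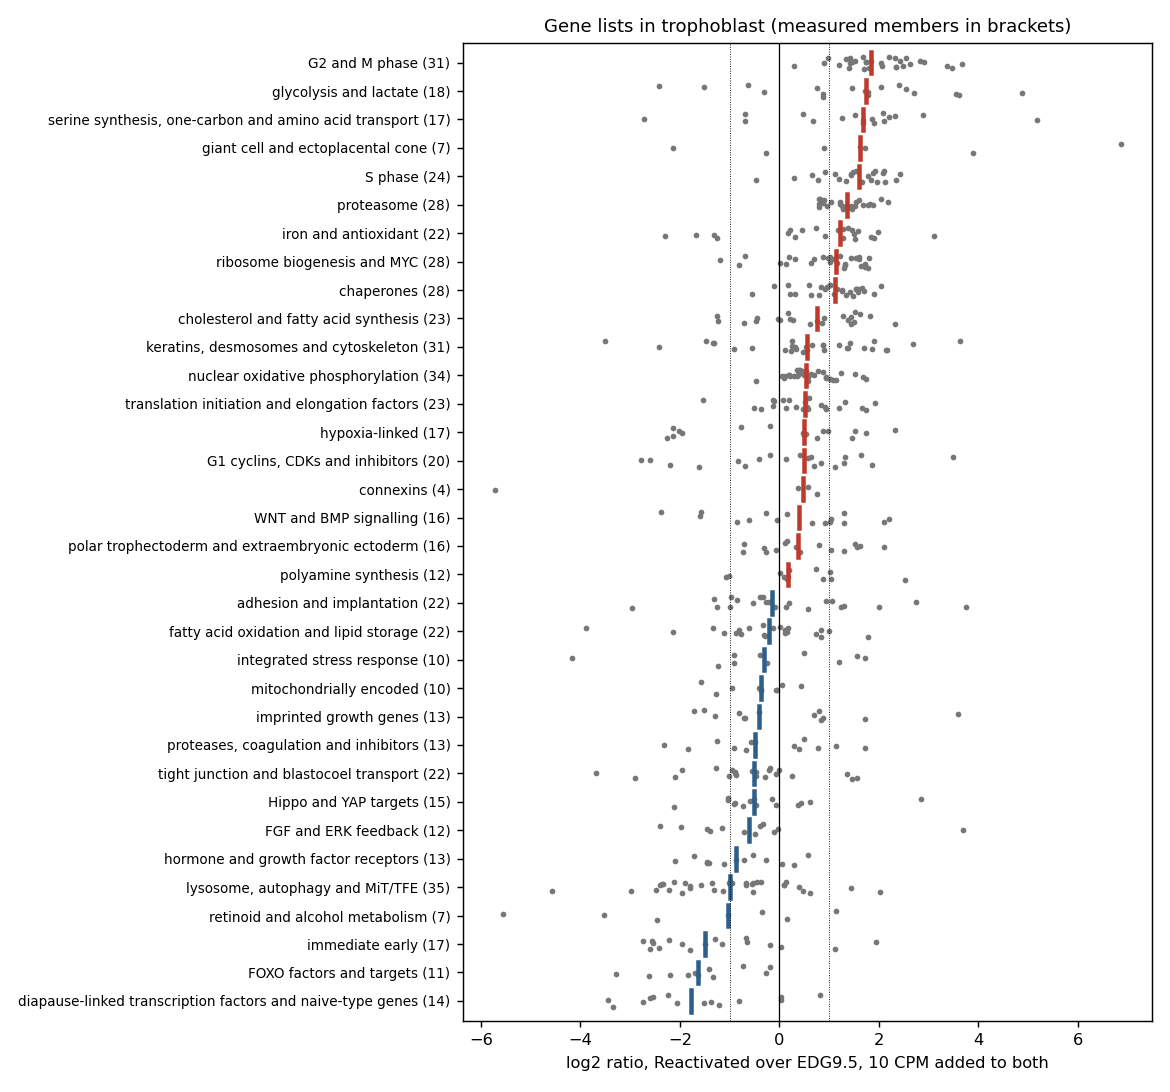
Log2 ratio in trophoblast, Reactivated over EDG9.5 with 10 CPM added to each, of every measured member (grey points, spread vertically only to separate them) of 34 gene lists, with the median of each list (bar, red above 0 and blue below). Dotted lines mark 2-fold. The G2 and M phase list has the highest median, 1.85, and the list of diapause-linked and naive-type genes the lowest, -1.78.

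Of 35 measured genes of the lysosome, autophagy and MiT/TFE list of 37 listed, 17 were lower in Reactivated, 16 were under 2-fold and 2 were higher, with a median of -0.999. TFEB is a transcription factor that switches on lysosome genes and is held in the cytoplasm when nutrients are plentiful, through the folliculin complex and Rag GTPases. Its gene Tfeb had 29.7 CPM in Reactivated and 163 CPM in EDG9.5, folliculin (Flcn) 18.9 and 125 CPM, its partner Fnip1 28 and 183 CPM, and the Rag GTPase Rragd 31.8 and 319 CPM. Lysosomal hydrolase genes went both ways, with hexosaminidase A (Hexa) at 59.3 and 377 CPM but cathepsin C (Ctsc) at 450.3 and 103 CPM. Autophagosome genes of the ATG8 family were lower in Gabarap, with 270.2 and 961 CPM, and Gabarapl2, with 26.4 and 182 CPM. Psap, the most abundant member, had 3301 and 5278 CPM, a ratio of 0.625 (0.608 to 0.643).

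FOXO factors act when insulin and growth factor signals are low. Of 11 measured FOXO genes and targets of 19 listed, 8 were lower and 0 higher, with a median of -1.64. Foxo3 had 27.5 CPM in Reactivated and 111 CPM in EDG9.5, Foxo1 9.17 and 49.9 CPM and Foxo4 31.3 and 93.4 CPM. Txnip, which restrains glucose uptake, had 7.55 and 161 CPM, 21.4 (12.7 to 39.3) times lower, and Klf15 2.16 and 64.9 CPM. Immediate early genes, which growth signals induce but which dissociation of tissue induces too, were lower in 11 of 17 measured genes and higher in 2, with a median of -1.49. Fos had 203 and 1240.1 CPM, Jun 112 and 637 CPM, Jund 403 and 1597 CPM and Egr1 64.7 and 441 CPM. The higher ones were Nfkbia, an inhibitor of NF-κB, with 202 and 45.1 CPM, and Myadm, with 881 and 403 CPM. Ier5, named above as an immediate early response gene but counted in the FGF and ERK feedback list, was higher too. The part of handling of the embryos in these values was not tested.

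Transcription factors linked to diapause or shared with naive pluripotency gave the lowest list median, -1.78, with 10 of 14 measured genes of 19 listed lower and 0 higher. Nr5a2, a nuclear receptor, had 4.31 CPM in Reactivated and 135 CPM in EDG9.5, Pramel7 6.47 and 169.9 CPM, and Tbx3, a T-box factor, 8.63 and 103 CPM. Klf2, Klf4 and Klf5 had 99.2 and 722 CPM, 72.8 and 472 CPM, and 164 and 713 CPM. Msx2, a homeobox gene, had 8.63 and 77.6 CPM, and its relative Msx1 141 and 256 CPM, under 2-fold. Tfap2a, a trophoblast factor on the same list, had 240.0 and 235 CPM.

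Signalling lists were mixed. Of 12 measured FGF and ERK feedback genes of 18 listed, 1 was higher, Ier5, and 5 lower, with a median of -0.60. The phosphatase Dusp4 had 9.71 CPM in Reactivated and 93.7 CPM in EDG9.5, whereas Dusp6 had 399.6 and 431 CPM. In WNT and BMP signalling 6 of 16 measured genes of 26 listed were higher and 3 lower, with a median of 0.40. The ligands Bmp8b and Wnt6 stood on opposite sides, with 50.7 and 3.08 CPM and 13.5 and 111 CPM. Of 15 measured Hippo genes and YAP targets of 18 listed, 1 was higher and 3 lower, with a median of -0.51, and Tead1, a DNA-binding partner of YAP, had 68.5 and 331 CPM. The lower count of the Hippo list lay near the all-gene share of 15.7%.

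Respiration and lipid genes differed by group. Nuclear-encoded genes of oxidative phosphorylation were higher in 8 of 34 measured genes of 35 listed and lower in 0, with a median of 0.54, led by the ATP synthase subunit Atp5g3 with 2709.7 CPM in Reactivated and 842 CPM in EDG9.5. Mitochondrially encoded genes, 10 measured of 15 listed, had 0 higher and 2 lower and a median of -0.36. mt-Co1 had 6235 and 18500 CPM, but mt-Nd1 13891 and 10226 CPM. Cholesterol and fatty acid synthesis had 9 of 23 measured genes of 28 listed higher and 2 lower, with a median of 0.75, among them farnesyl diphosphate synthase (Fdps) with 123 and 16.7 CPM. Fatty acid oxidation and lipid storage had 1 of 22 measured genes of 27 listed higher and 4 lower, with a median of -0.21, which was 0.098 with thinned cells. The lower counts of this list and of the mitochondrially encoded genes lay near the all-gene share of 15.7%. The carnitine carrier Slc22a5 had 9.71 and 279.6 CPM and the acyl-CoA dehydrogenase Acadl 105 and 492 CPM.

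Cells of Reactivated trophoblast were not alike. The following subsets were drawn after the values had been seen and carry no test. Adh1 reached 1000 CPM in 7 of 153 Reactivated cells (4.58%) and in 907 of 975 EDG9.5 cells (93.0%). Near that limit, within 2-fold on either side, lay 7 Reactivated cells. The 7 cells at or above 1000 CPM of Adh1, with a median of 5612 UMIs, held 47 of the 51 Gjb2 UMIs, so that Gjb2 had 1125 CPM in them and 2.21 CPM in the other 146. They had 0 UMIs of Ldha, against 1145 CPM in the other 146, 1340.4 against 43.6 CPM for Dab2, and 12925 against 3847 CPM for H19, an imprinted noncoding RNA. Without them the log2 ratio was -7.34 for Gjb2 and -6.82 for Adh1, against -5.72 and -5.55 with all cells. Ctsll3 reached 1000 CPM in 32 Reactivated cells (20.9%), none of them among those 7, and in 0 EDG9.5 cells. The 32 cells held 2278 of 2294 Ctsll3 UMIs and had 1163 CPM of Plac1, against 172 CPM in the other 121 cells. They had 1119 against 198 CPM of Krt19 and 4861 against 160.2 CPM of BC051665. Genes of the lineage rule are given as a description only. Hand1 had 521 against 97.9 CPM, Dppa1 1058 against 141 CPM, Gata3 314 against 188 CPM and Ascl2 149 against 81.8 CPM. Cdx2 had 16.5 against 69.7 CPM and Elf5 601 against 732 CPM. Birc5 was lower in the 32 cells, with 121 against 658 CPM, as was H19, with 835 against 4834 CPM. Without these cells the log2 ratio was 0.96 for Ctsll3, 1.29 for BC051665, 2.84 for Plac1 and 2.74 for Krt19, against 6.87, 3.97, 3.89 and 3.64 with all. Psat1 and Ldha were spread over cells instead, each with UMIs in 142 of 153 cells. Saa3, Hand1, Ascl2 and Phlda2 had UMIs in only 30, 38, 44 and 48 of the 153 cells, so their levels came from a part of the cells.

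**Figure D4:**
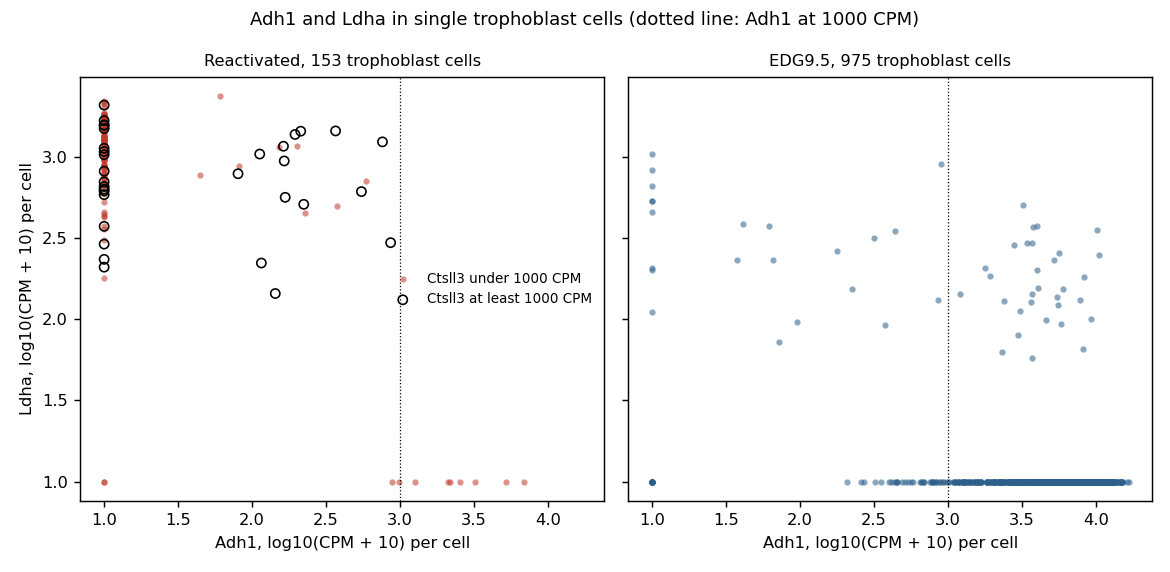
Ldha against Adh1 in single trophoblast cells, as log10(CPM + 10), for 153 Reactivated cells (left) and 975 EDG9.5 cells (right), with open circles for cells with Ctsll3 of at least 1000 CPM and a dotted line at 1000 CPM of Adh1. A value of 1.0 means 0 UMIs. Most Reactivated cells lie at high Ldha and no Adh1, most EDG9.5 cells at high Adh1 and no Ldha, and the 7 Reactivated cells right of the line have 0 Ldha UMIs.

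At equal depth the same genes separated the cells of the libraries. Here cells kept the lineage given by their full counts. With each cell thinned to 1000 UMIs, Ldha was seen in 58.8% (50.6 to 66.7) of Reactivated trophoblast cells and 1.64% (0.94 to 2.65) of EDG9.5 cells, against 92.8% and 5.44% at full depth. Psat1 was seen in 51.0% (42.8 to 59.1) and 0.72% (0.29 to 1.47), against 92.8% and 3.69% at full depth. Gjb2 was seen in 3.27% (1.07 to 7.46) of Reactivated cells and 68.0% (65.0 to 70.9) of EDG9.5 cells, against 6.54% and 83.5% at full depth. As a background, Gjb2 was seen in 0 and 0.84% of thinned epiblast cells of Reactivated and EDG9.5, whose median depths were 12528.5 and 4039.5 UMIs. For Adh1 the thinned shares were 7.84% in Reactivated and 93.9% in EDG9.5, with 13.0% in EDG9.5 epiblast.

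The other lineages shared part of these differences, side by side and with no test. S phase medians were 1.59 in trophoblast, 0.98 in epiblast and 0.72 in endoderm, and G2 and M phase medians 1.85, 1.18 and 1.46. For serine synthesis and amino acid transport they were 1.68, 0.63 and 0.71, for iron and antioxidant genes 1.23, 0.49 and 0.61, and for chaperones 1.12, 0.50 and 0.81. In other lists trophoblast did not have the highest median: nuclear oxidative phosphorylation gave 0.54, 0.73 and 0.82, cholesterol and fatty acid synthesis 0.75, 0.88 and 1.02, and the lysosome list -0.999, -1.58 and -0.21. The all-gene medians were -0.04 in trophoblast, -0.25 in epiblast and -0.18 in endoderm. In epiblast Psat1 had 168 CPM in Reactivated and 46.1 CPM in EDG9.5, and Ldha 1251 and 10.6 CPM. In endoderm the values were 142 and 55.4 CPM for Psat1 and 1245 and 95.4 CPM for Ldha. Gpnmb was also lower in epiblast, with 4.68 CPM in Reactivated and 1005 CPM in EDG9.5.

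**Figure D5:**
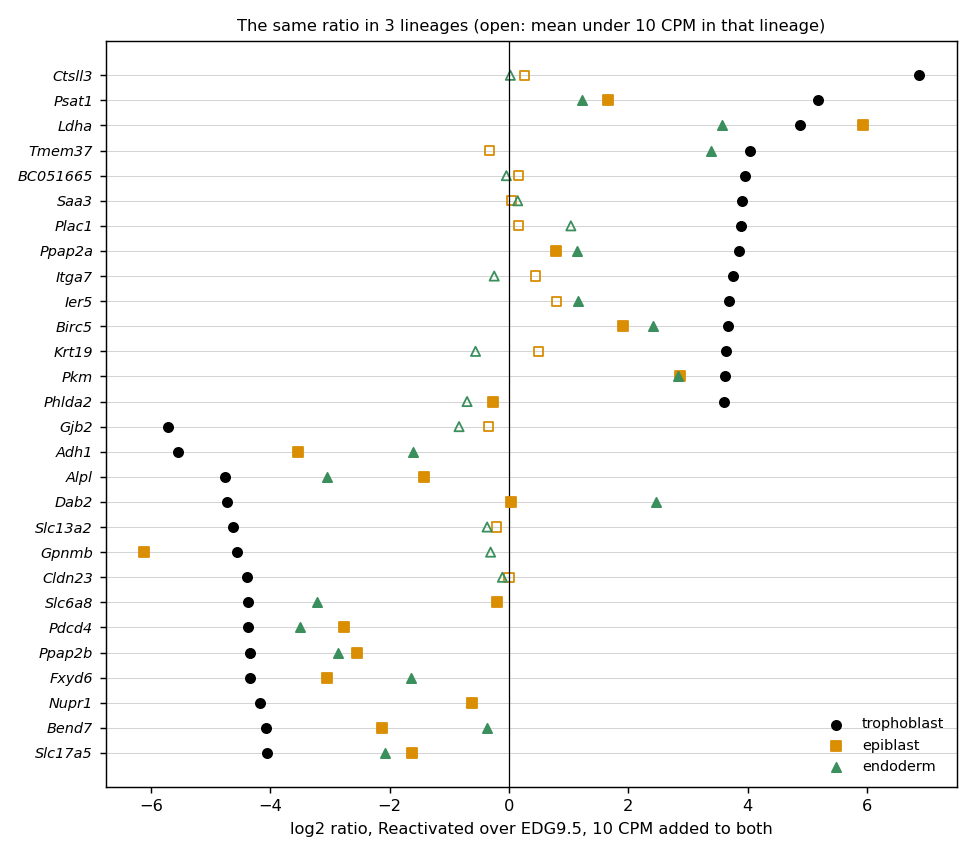
Log2 ratio, Reactivated over EDG9.5 with 10 CPM added to each, of the 28 genes in trophoblast (black circles), epiblast (orange squares) and endoderm (green triangles), open where the mean in that lineage was under 10 CPM. Ldha and Pkm are above 0 in all 3 lineages, Dab2 is at -4.73 in trophoblast and 2.47 in endoderm, and Ctsll3 and Gjb2 are near absent from the other lineages.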

How the data were processed

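Single-cell RNA was captured on the BD Rhapsody system with 1 library per stage. The authors deposited 1 table of raw UMI counts per library, genes by cell barcodes. Per the submitters' processing notes, UMI-tools 1.0.1, STAR 2.7.1a and featureCounts 1.6.4 were used with the genome build mm10. The barcode selection and the strand setting of the counting were not given in the sources used here. As deposited, counts held 677 barcodes and 9270833 UMIs for Reactivated and 2566 barcodes and 10994918 UMIs for EDG9.5.

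Cells with at least 1000 UMIs were assigned to trophoblast, epiblast or endoderm by 10, 7 and 8 genes. Counts were summed per lineage and library and scaled to CPM (Python 3.11.15, numpy 2.4.6, scipy 1.17.1, pandas 2.3.3). Genes needed a mean of 10 CPM. A gene was called at a fold of 2 on log2(CPM + 10). Intervals are exact Poisson for levels, exact conditional binomial for ratios and Clopper-Pearson for shares, and cover counting error only. No doublets were removed: Scrublet in scanpy 1.11.5 marked 1 of 677 Reactivated and 7 of 2522 EDG9.5 cells, too few to say that it worked. TMM used edgeR 4.0.16. Steps were tested on simulated counts.

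The members, the 34 lists and the motifs were chosen with earlier results of these data known. Genes named were the 14 at each end of the log2 ratio with at least 50 UMIs in both sums together and 100 CPM in either, without rule, ribosomal, mitochondrial, haemoglobin, Gm and Rik genes. From each list the 4 members with the highest mean CPM, and members at a log2 ratio of 2 or more in size with 50 CPM in either sum, could be named, as could receptors and rule genes. Other genes were chosen after their values were seen. Values of 2 genes are not reported here.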

Additional observations from a re-analysis of the deposited data

Results flagged for a closer look

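Among the genes named by the rule, 5 were at least 2-fold apart in opposite directions in trophoblast and in another lineage, with at least 100 CPM in Reactivated or EDG9.5 in each. Other genes with smaller or lower values had opposite signs too. With 1 library per stage these differences between lineages were not tested. Asns, the asparagine synthetase, had a log2 ratio of 2.08 in trophoblast, against -1.80 in endoderm, where it had 247 CPM in Reactivated and 887 CPM in EDG9.5, a difference of 3.88. In epiblast Asns had 276 CPM in Reactivated and 1049.6 CPM in EDG9.5, a log2 ratio of -1.89 and a difference of 3.97. Dab2, the endocytic adaptor, had -4.73 in trophoblast and 2.47 in endoderm, a difference of -7.20, with 3932 and 700.3 CPM in endoderm. Cyp26a1, which degrades retinoic acid, had -2.45 in trophoblast and 3.58 in endoderm, with 163 and 4.51 CPM there, a difference of -6.02. The metallothionein Mt1 had -1.68 in trophoblast and 1.56 in endoderm, with 2506 and 845 CPM there, a difference of -3.23. Id2 had 1.03 in trophoblast and -1.28 in epiblast, with 175 and 438 CPM there, a difference of 2.31.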

How the results depend on the processing

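With 1 library per stage, no spread between replicates was measured. No paired analysis was possible because each group has 1 library. Signs of single genes were followed only for the genes named by the rule for naming, without those that chose the cells. None of them past 2-fold changed sign in the alternatives run. The all-gene median of -0.04 was 0.02 with thinned cells and 0.17 with a mean of at least 50 CPM, and with 50 CPM added or that minimum more genes were higher than lower. Of the followed genes under 2-fold, with log2 ratios up to 0.713 in size, 16 changed sign, Lgals3 and Dusp6 among them. So did 5 list medians: adhesion (0.22), connexins (-0.27), fatty acid oxidation (0.098) and imprinted genes (0.33), all with thinned cells, and proteases (0.22 without a filter, 0.0027 with a mean of at least 50 CPM). The adhesion median was also just above 0 when at least 80% of marker UMIs were asked for. Each value was also set against limits around the value reported. The limits were a set fold for counts, the counting interval for shares and followed genes, and an interval drawn from the members for list medians. Within the limits were 38 of the counts and shares, 539 of the list medians and 2747 of the values of the followed genes. Outside them were 8, 5 and 613. The limits for list medians are wide, so a median could change sign and still lie within them. With 50 CPM added, 442 genes were higher and 424 lower, and with a mean of at least 50 CPM 682 and 589. The share of trophoblast in Reactivated was 17.2% when at least 80% of marker UMIs were asked for, 19.8% in cells under 10% mitochondrial UMIs and 14% with cells thinned to 1000 UMIs. In EDG9.5 it was 31.7% in cells under 10% mitochondrial UMIs. The S phase median was 1.13 with thinned cells and 0.97 with 50 CPM added. The G2 and M phase median was 2.5 with 1 CPM added, 1.03 with 50 CPM added and 2.39 with a mean of at least 50 CPM. Leaving out ribosomal and mitochondrial genes from the totals gave 1110 genes higher and 1471 lower. Chosen after seeing the data, leaving out Reactivated cells with high Adh1 gave 1105 higher and 1276 lower, and those with high Ctsll3 1168 and 1369. The cause of these shifts was not tested, except that adding CPM shrinks ratios and a higher minimum tests fewer genes.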

Other observations

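Iron, redox, hypoxia-linked and imprinted genes were also read in trophoblast. Of 22 measured iron and antioxidant genes of 25 listed, 12 were at least 2-fold higher in Reactivated and 4 lower, with a median log2 ratio of 1.23. The transferrin receptor Tfrc, which brings iron into the cell, had 179.6 CPM in Reactivated and 11.9 CPM in EDG9.5, and the heme oxygenase Hmox1 311 and 71.2 CPM. The metallothioneins Mt1 and Mt2, which bind zinc and copper, were among the lower ones, with 3266 and 10453 CPM for Mt1 and 5010 and 11952 CPM for Mt2. The glutathione transferase Gstm1 had 50.1 and 286 CPM.

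Hypoxia-linked genes were split, with 4 of 17 measured genes of 21 listed higher and 5 lower. Vegfa, the vascular growth factor, had 15.6 CPM in Reactivated and 93.4 CPM in EDG9.5, the oxygen sensor Egln1 99.2 and 470.2 CPM, and Hif1a 55 and 241 CPM, while the cytokine Mif had 496 and 90.4 CPM. Of 13 measured imprinted growth genes of 22 listed, 2 were higher, Phlda2 and Peg10, and 3 lower. The higher count lay near the all-gene share of 13.7%. H19 had 4052 and 5382 CPM and its neighbour Igf2 206 and 342 CPM. Among proteases, the plasminogen activators stood on opposite sides, with Plau at 25.9 CPM in Reactivated and 0.88 CPM in EDG9.5 and Plat at 0 UMIs in Reactivated and 39.8 CPM in EDG9.5. In polyamine synthesis Srm, the spermidine synthase, had 498 and 78.3 CPM and Odc1, the first enzyme, 246 and 117 CPM.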
